A study of Mus musculus with 36 samples.

Results

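The AP-1 transcription factor subunits were followed as 10 genes chosen by name: *Fos*, *Fosb*, *Fosl1* and *Fosl2* of the Fos family, *Jun*, *Junb* and *Jund* of the Jun family, and *Atf3*, *Maff* and *Batf3* of related families. Each name matched 1 row of the deposited count table (10 of 53421 genes) and 1 row of the TPM table (10 of 52416 genes). All 10 were kept by the filter on low counts over the whole series, which kept 16710 genes. The cells, wild type by their labels, were mouse chondrocytes of fibroblast-like shape from a conditionally immortalised line. They were transfected with a pool of non-targeting siRNA (NT) or with a pool against *Ift88* (IFT88siRNA), which encodes an intraflagellar transport protein needed to build cilia, and the labels give the siRNA at 50 nM. After transfection the cells stayed without IL-1β (0 h) or received 10 ng/ml of this inflammatory cytokine for 1, 2, 4, 8 or 24 h. All 12 conditions thus had a transfection in common, each had 3 libraries of poly(A) RNA, and there were 36 libraries in all.

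AP-1 is a dimer of basic leucine zipper proteins that binds a short palindrome in promoters and enhancers. Fos proteins cannot pair with each other and need a Jun partner, whereas Jun proteins can pair with themselves, with Fos proteins or with members of the ATF family, and small Maf proteins such as MAFF lack a transactivation domain. Cytokines and growth factors induce many of these genes within an hour through MAP kinases and NFκB, and in cartilage cells AP-1 is known for its part in the expression of matrix metalloproteinases.

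The promoters of the induced members are shown first, because the genes rose together within an hour of IL-1β. RefSeq (GRCm38.p6) gave a window from 250 bases before to 50 bases after the start for 9 of the 10 genes, with 3 starts for *Maff*, and none was used for *Fosl1*. Windows were searched on both strands for the AP-1 palindrome TGANTCA, the longer ATF/CREB palindrome TGACNTCA, the CArG box bound by SRF and the κB motif bound by NFκB. Of 32851 windows of this length in the table, 7.81% held TGANTCA, 8.83% TGACNTCA, 1.63% a CArG box and 4.51% a κB motif. For 5 windows with a match, the 250 bases before the start are printed 5′ to 3′ on the strand of the gene, with the matches in capitals. They are *Fos* (chr12:85473640-85473889, + strand), *Fosb* (chr7:19310046-19310295, - strand), *Fosl2* (chr5:32136222-32136471, + strand), *Jun* (chr4:95052223-95052472, - strand) and the third start of *Maff* (chr15:79348152-79348401, + strand).
Fos: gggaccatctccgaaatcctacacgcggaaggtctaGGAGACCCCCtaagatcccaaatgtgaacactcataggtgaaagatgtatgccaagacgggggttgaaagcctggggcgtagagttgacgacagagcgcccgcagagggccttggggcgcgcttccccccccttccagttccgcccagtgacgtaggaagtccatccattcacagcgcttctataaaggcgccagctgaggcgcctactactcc
Fosb: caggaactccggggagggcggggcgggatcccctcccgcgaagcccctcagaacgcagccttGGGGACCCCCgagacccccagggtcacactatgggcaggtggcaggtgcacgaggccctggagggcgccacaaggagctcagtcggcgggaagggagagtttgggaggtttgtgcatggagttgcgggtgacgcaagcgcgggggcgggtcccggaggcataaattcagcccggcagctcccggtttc
Fosl2: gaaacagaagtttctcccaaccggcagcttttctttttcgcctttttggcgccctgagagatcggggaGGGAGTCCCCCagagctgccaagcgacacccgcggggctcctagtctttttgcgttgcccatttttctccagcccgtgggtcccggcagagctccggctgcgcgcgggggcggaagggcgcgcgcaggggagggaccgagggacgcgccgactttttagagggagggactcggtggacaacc
Jun: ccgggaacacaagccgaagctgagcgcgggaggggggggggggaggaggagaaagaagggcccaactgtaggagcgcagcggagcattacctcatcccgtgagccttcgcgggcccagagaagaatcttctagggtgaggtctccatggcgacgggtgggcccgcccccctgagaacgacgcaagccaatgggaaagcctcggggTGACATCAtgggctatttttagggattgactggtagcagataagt
Maff: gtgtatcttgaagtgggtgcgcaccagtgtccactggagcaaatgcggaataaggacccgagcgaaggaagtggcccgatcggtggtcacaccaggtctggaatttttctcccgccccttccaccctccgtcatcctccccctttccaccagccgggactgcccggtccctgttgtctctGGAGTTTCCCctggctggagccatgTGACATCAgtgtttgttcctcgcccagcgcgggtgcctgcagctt
The capitals are a κB motif in *Fos*, *Fosb* and *Fosl2*, where it begins 214, 188 and 182 bases before the start (in *Fosl2* there are 2 overlapping matches, the other beginning at 181), and TGACATCA in *Jun*, 45 bases before it. In *Maff* they are a κB motif 70 bases and TGACATCA 45 bases before the third start, and the window of its second start held TGACGTCA 29 bases before the start. The windows of *Junb*, *Jund*, *Atf3* and *Batf3* held none of the 4 motifs, and no member's window held TGANTCA or a CArG box. Bases more than 250 before the start were not searched, so sites there would be missed. The window of *Jund* lies upstream of the gene as GENCODE annotates it. A match describes these letters only, and factor binding was not measured here.

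Total counts on genes were between 19337022 and 38304127 per library. When replicate libraries were compared in pairs, chi-square divided by its degrees of freedom lay between 1.65 and 10.0, so that no pair was as close as counting error alone, and the highest values were between replicates 2 and 3 of IFT88siRNA at 8 h (10.0) and of NT at 2 h (9.88). The labels do not say that replicates were separate cultures, so p-values measure the spread between these libraries, which may be technical, and with no molecular identifiers the reads need not stem from independent molecules. The siRNA lowered *Ift88* at every time, with log2 fold changes of −1.71 ± 0.11 (SE) at 0 h, −2.12 ± 0.13 at 2 h, the largest, and −1.47 ± 0.12 at 24 h, the smallest, and IFT88siRNA libraries lay below NT libraries throughout. The 7 chondrocyte markers summed to 27.3 to 150.5 TPM per library: *Col9a1* (0 to 0.106 TPM) and *Acan* (0.00837 to 0.206 TPM) were near 0, *Prg4* and *Col2a1* reached 5.55 and 9.05 TPM, and *Comp*, *Sox9* and *Col11a1* reached 21.99, 34.6 and 92.9 TPM. The 6 fibroblast markers summed to 639 to 1558 TPM, from *Thy1* (3.29 to 19.7 TPM) to *Col1a2* (414.0 to 1006 TPM). Of 5 macrophage and leukocyte markers *Cd68* was at 4.32 to 12.3 TPM, and *Ptprc*, *Adgre1*, *Csf1r* and *Itgam* reached no more than 0.161, 0.0406, 0.264 and 0.981 TPM. In a culture measured in bulk, fewer cells with a transcript and less of it per cell cannot be told apart.

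In NT cells, IL-1β raised 9 of the 10 AP-1 genes within 1 h, and *Batf3* was the exception. Expression is given as CPM (counts relative to library size, with TMM scaling), each condition was tested against the 0 h libraries of the same siRNA with edgeR's quasi-likelihood test, and a gene was taken as changed where its Benjamini-Hochberg adjusted p was under 0.05 and its fold over 1.5 in either direction. At the 5 times from 1 to 24 h, in order, 9, 9, 8, 4 and 3 members were higher than at 0 h by both criteria, beside 9.22%, 13.0%, 16.3%, 11.8% and 6.61% of the 16048 genes tested. With edgeR 0 of the 10 were lower by both criteria at any time, beside 9.45%, 14.3%, 12.4%, 7.87% and 9.71% of all genes. However, 3 were lower at 24 h at an unadjusted p under 0.05, which 8234 of the 16048 genes had in either direction. When the 5 times were tested together 9 members changed over time, beside 50.0% of all genes. The 5 comparisons share the 0 h libraries. The call for *Atf3* at 8 h (0.65 ± 0.09 on the log2 scale) was lost in TPM (0.51).

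*Fosb* (chr7:19302696-19310051, − strand of GRCm38), a Fos family gene that most resting cells hardly express, had the largest change. Its expression in the 3 NT libraries was 3.63, 4.17 and 3.50 CPM at 0 h and 798, 757 and 734 CPM at 1 h. The increase was 202-fold, or 7.65 ± 0.09 on the log2 scale (SE, adjusted p = 4.74e-27), and the groups were far apart. It was also brief: mean CPM was 109 ± 9.09 at 2 h (SD, n = 3), 9.16 ± 1.38 at 4 h and 3.46 ± 0.520 at 8 h, when *Fosb* was no longer distinguished from 0 h with counts (log2 fold change −0.12 ± 0.15, adjusted p = 0.517). On the log2(TPM + 0.1) scale it was lower there (−0.60, adjusted p = 0.000961 with limma), at 1.68 ± 0.190 TPM against 2.61 ± 0.297 TPM.

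*Fos* (chr12:85473890-85477273, + strand), the prototype of the immediate early genes, rose from 18.7, 18.02 and 18.9 CPM to 225, 250 and 212 CPM at 1 h, a log2 fold change of 3.62 ± 0.08 (adjusted p = 6.42e-22). Unlike *Fosb*, it kept an intermediate level for several hours, with 52.0 ± 2.49 CPM at 2 h and 44.2 ± 5.82 CPM at 4 h. *Fos* was then at 21.0 ± 1.67 CPM at 8 h, and at 24 h its mean of 15.5 ± 0.537 CPM was below that of 0 h, with an adjusted p of 0.0224 but a fold change short of 1.5 (log2 −0.26 ± 0.09).

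The other Fos family genes, which encode FRA1 and FRA2 and lack the potent transactivation domain of FOS, started from higher levels and stayed up longer. *Fosl1* (FRA1, chr19:5447547-5455946, + strand) was at 70.8, 67.5 and 63.5 CPM at 0 h, 289, 278 and 305 CPM at 1 h and 366, 356 and 365 CPM at 2 h, its highest point, where the log2 fold change was 2.42 ± 0.05 (adjusted p = 1.13e-22). Every library of *Fosl1* at 2 h was above every library at 1 h. *Fosl2* (FRA2, chr5:32135801-32157842, + strand) went from 141, 144 and 135 CPM to 1123, 1098 and 1179 CPM at 1 h (log2 fold change 3.02 ± 0.04, adjusted p = 1.33e-25) and was the most persistent of the 4, at 426 ± 8.13 CPM at 8 h and 327 ± 8.46 CPM at 24 h, where it was still raised by 1.23 ± 0.04 on the log2 scale (adjusted p = 5.94e-18).

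In the Jun family, *Junb* (chr8:84974484-84978718, − strand), whose protein often opposes JUN, rose from 107, 110 and 99.97 CPM to 1725, 1673 and 1638 CPM at 1 h. The log2 fold change was 3.99 ± 0.07 (adjusted p = 3.38e-24), and at 24 h it was 1.28 ± 0.06 (adjusted p = 1.05e-14), with 256 ± 17.97 CPM. *Jun* (chr4:95049034-95052222, − strand), the main transactivating partner of FOS, went from 120, 117 and 115 CPM to 617, 654 and 572 CPM at 1 h (log2 fold change 2.39 ± 0.05, adjusted p = 9.99e-22) and had declined to 213 ± 6.08 CPM at 2 h. Its changes at 2 and 4 h, 0.86 ± 0.05 and 0.75 ± 0.05 on the log2 scale, passed both criteria with counts, but the same changes in the TPM values, 0.57 and 0.46, were short of 1.5-fold.

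*Jund* (chr8:70698949-70700616, + strand), usually described as the constitutive Jun gene, rose the least of the 9. It was at 40.6, 42.7 and 40.7 CPM at 0 h, 133, 110 and 104 CPM at 1 h and 129, 128 and 104 CPM at 2 h, so that the libraries of both later times lay above all those of 0 h and overlapped each other. The log2 fold change was 1.48 ± 0.09 at 1 h (adjusted p = 4.39e-13) and 1.53 ± 0.09 at 2 h (adjusted p = 1.03e-13). At 4 h it was 0.43 ± 0.09, under the fold criterion.

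The 3 remaining genes differed from each other. *Atf3* (chr1:191170296-191218039, − strand), a stress-induced repressor of the ATF family, went from 23.5, 23.4 and 24.8 CPM to 134, 138 and 150 CPM at 1 h (log2 fold change 2.55 ± 0.08, adjusted p = 2.5e-18), declined through 71.4 ± 2.76 CPM at 2 h and 37.3 ± 4.18 CPM at 8 h, and ended below its start. At 24 h it was at 17.2, 17.1 and 15.0 CPM, all under the 0 h libraries, a log2 fold change of −0.54 ± 0.09 (adjusted p = 3.96e-05) that was short of 1.5-fold, although it passed with upper-quartile scaling (−0.59). *Maff* (chr15:79346621-79359076, + strand) had a plateau, with 203, 197 and 195 CPM at 1 h and 190, 213 and 184 CPM at 2 h against 20.8, 20.3 and 19.8 CPM at 0 h, and log2 fold changes of 3.29 ± 0.06 (adjusted p = 2.38e-23) and 3.26 ± 0.06 (adjusted p = 3.24e-23). *Batf3* (chr1:191097847-191108945, + strand), known from dendritic cells, was at 3.17, 2.60 and 2.57 CPM at 0 h and 3.20, 2.86 and 2.46 CPM at 1 h. Its condition means stayed between 2.31 and 3.65 CPM in NT, and the log2 fold change at 1 h was 0.03 ± 0.18 with a 95% interval from −0.32 to 0.38 (adjusted p = 0.914).

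**Figure D1:**
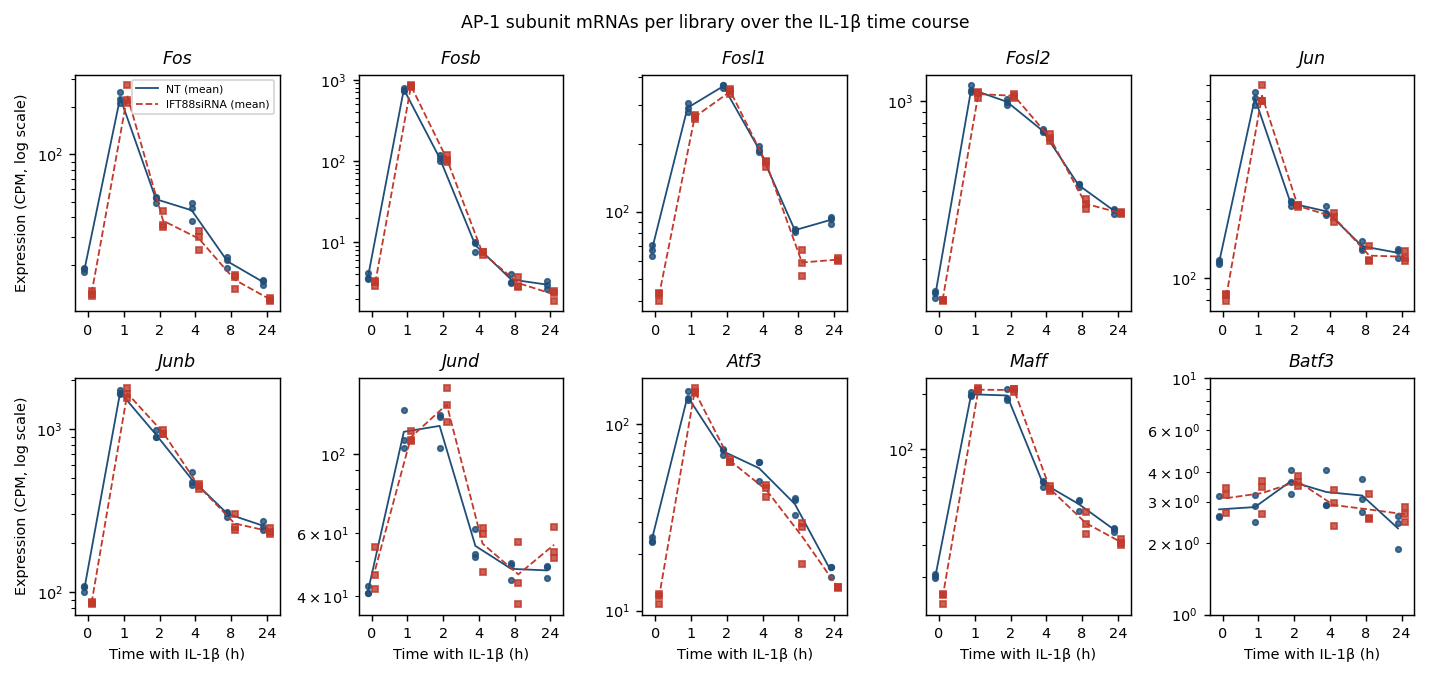
Expression of the 10 AP-1 genes (CPM, log scale with a range of its own for each gene) against time with IL-1β (h, evenly spaced) in NT (blue circles, solid line) and IFT88siRNA (red squares, dashed line). Each point is a library and each line joins the means of 3; *Fosb* climbs from about 3.77 to 763 CPM in NT within 1 h, *Batf3* stays between 1.90 and 4.09 CPM, and the red squares of *Atf3* start below the blue circles and meet them at 1 h.

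The genes differed in how long the rise lasted, and their order depended on the time at which it was read. Of the mean rise of *Fosb* in NT at its highest time, 13.8% was left at 2 h and 0.710% at 4 h, and for *Fos* these shares were 15.9% and 12.2%. *Jun* and *Atf3* had 15.9% and 29.2% of their rise left at 4 h. *Jund* kept 17.65%, *Junb* 24.6%, *Maff* 25.2%, *Fosl1* 41.5% and *Fosl2* 60.5%. At 8 h the order was another: 28.8% was left for *Fosl2*, 16.8% for *Maff*, 12.5% for *Junb*, 11.5% for *Atf3* and 5.23% for *Fosl1*. *Fosl2* still had 18.8% of its rise at 24 h. The highest mean was at 1 h for *Fos*, *Fosb*, *Fosl2*, *Jun*, *Junb*, *Atf3* and *Maff*, and at 2 h for *Fosl1* and *Jund*. Neighbouring times could not be ordered for *Maff* and *Jund*, whose libraries at 1 and 2 h overlapped.

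Set beside each other per length, in TPM, the Jun family made up the larger part of the AP-1 mRNA at every time. The 10 genes summed to 584 ± 12.1 TPM in NT at 0 h (SD, n = 3), 3972 ± 60.3 TPM at 1 h, 2399 ± 52.2 TPM at 2 h and 818 ± 25.9 TPM at 24 h. At 0 h the order of the levels by TPM was *Jund* (177 ± 2.41 TPM), *Junb* (132 ± 5.66), *Fosl1* (79.1 ± 3.85), *Jun* (78.7 ± 1.67), *Fosl2* (39.7 ± 1.05), *Atf3* (23.2 ± 0.762), *Maff* (22.8 ± 0.301), *Fos* (18.5 ± 0.641), *Batf3* (10.6 ± 1.19) and *Fosb* (2.61 ± 0.297). *Fosl1* and *Jun*, and *Atf3* and *Maff*, did not differ beyond their spread.

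At 1 h, *Junb* alone was at 1714 ± 36.2 TPM and held 43.2 ± 0.377% of the sum, up from 22.6 ± 0.553% at 0 h. *Fosb* went from 0.446 ± 0.0431% to 10.1 ± 0.225%, the last place at 0 h giving way to a level of 401 ± 7.73 TPM whose libraries overlapped those of *Jund* (404 ± 24.9 TPM). At 24 h *Junb* held 35.5 ± 0.574%, *Jund* 22.7 ± 0.270%, *Fosl1* 12.2 ± 0.189% and *Fosl2* 10.5 ± 0.286%. In IFT88siRNA the sum was 469 ± 9.66 TPM at 0 h, below every NT library, and 4008 ± 92.7 TPM at 1 h, where *Junb* held 42.9 ± 0.741%.

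The shares, and with them the order of the levels at 0 h, depended on the unit, most of all for *Jund*. Its share at 0 h was 30.4 ± 0.638% by TPM but 13.5 ± 0.399% by CPM divided by exonic length, where it came after *Junb* (24.9 ± 0.577%), *Jun* (20.0 ± 0.246%) and *Fosl1* (17.96 ± 0.566%). *Jun* (13.5 ± 0.191% by TPM), *Atf3* (3.98 ± 0.205% by TPM and 6.04 ± 0.372% by length) and *Batf3* (1.80 ± 0.173% and 0.944 ± 0.101%) also moved beyond their spread. So did the other members, such as *Fos* (3.17 ± 0.145% and 4.29 ± 0.211%). Shares are parts of a sum, so a lower share of *Jund* by itself raises those of the others. The annotation places an antisense gene, *Gm11175*, over 877 exonic bases of *Jund* (52.6%) and *Ccdc85b* on the opposite strand over 1163 exonic bases of *Fosl1* (57.2%). The overlaps of *Jun* with *Junos* (7.3%) and of *Junb* with *Prdx2* (7.5%) were smaller. Without strand, reads of *Jund* or *Fosl1* and of the partner cannot be told apart there. Counting at default settings gives a read over 2 genes to neither, so counts of *Jund* and *Fosl1* can be too low. The exonic lengths used for the shares include the shared bases. How the TPM estimates divided such reads was not tested, so levels of *Jund* and *Fosl1* are uncertain in both units. *Gm11175* was at 0 in the counts of every library, but at 6.75 ± 8.20 TPM in NT at 0 h and 38.7 ± 5.19 TPM at 1 h. *Ccdc85b* itself was at 22.5 ± 1.80 CPM in NT at 0 h and 51.8 ± 6.96 CPM at 1 h, and its part in the values of *Fosl1* was not tested.

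**Figure D2:**
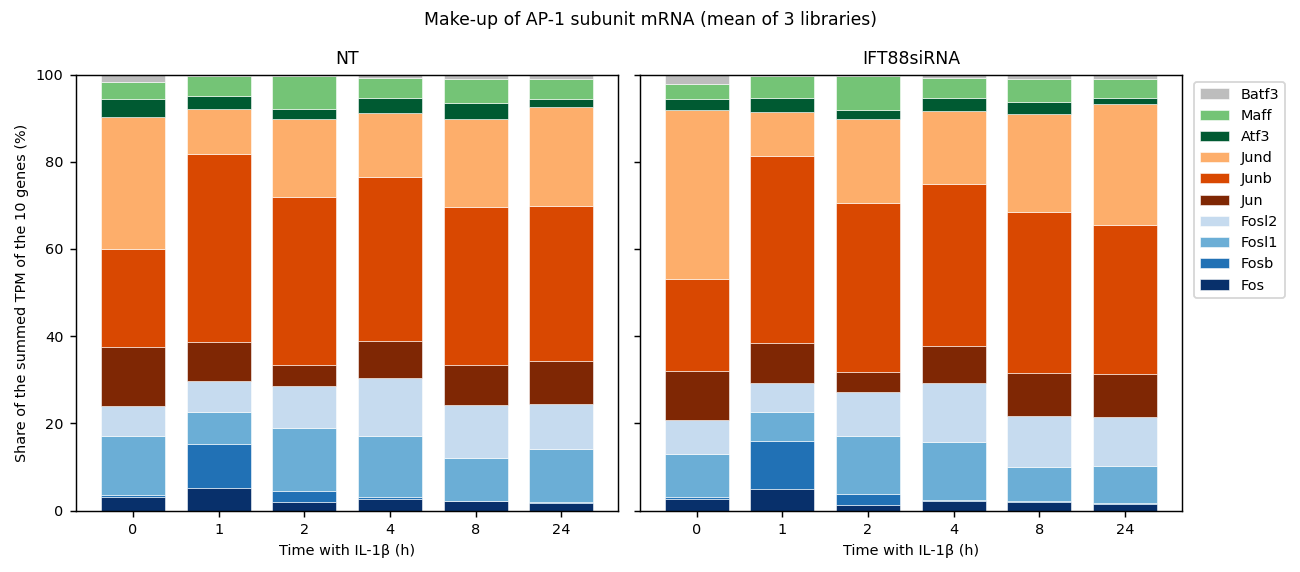
Share of each gene in the summed TPM of the 10 (%, stacked bars, means of 3 libraries) at each time with IL-1β (h) in NT (left) and IFT88siRNA (right). Blues are the Fos family, oranges and brown the Jun family, greens *Atf3* and *Maff* and grey *Batf3*; *Junb* grows from 22.6% to 43.2% of the NT sum within 1 h while *Jund* shrinks from 30.4% to 10.2%.

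In IFT88siRNA cells the same comparison with their own 0 h libraries gave 9, 9, 8, 5 and 3 members higher at the 5 times from 1 to 24 h, beside 6.82%, 12.4%, 16.0%, 10.5% and 6.36% of the 16129 genes tested, and 9 over time, beside 48.2%. *Fosb* rose from 3.24, 3.27 and 2.89 CPM to 855, 850 and 813 CPM at 1 h (log2 fold change 8.06 ± 0.09, adjusted p = 5.3e-27). *Junb* rose by 4.26 ± 0.08, *Fos* by 4.16 ± 0.11, *Maff* by 3.76 ± 0.07 and *Atf3* by 3.68 ± 0.11 on the log2 scale (adjusted p between 1.05e-18 and 2.65e-23). The gene called here and not in NT at 8 h was *Jun*, at 0.59 ± 0.07 on the log2 scale (adjusted p = 5.46e-08), just past 1.5-fold. Its value was 0.56 without replicate 1 of 0 h, 0.52 without replicate 1 of 8 h, 0.54 with upper-quartile scaling and 0.52 in TPM, all short of that fold. At 24 h *Jun* was at 0.58 ± 0.07, just under the criterion, which it passed without replicate 2 or 3 of 0 h (both 0.59), replicate 1 (0.60) or 2 (0.59) of 24 h, or any 1 library of 1, 2 or 4 h (all 0.60).

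Before IL-1β, 8 of the 10 genes had all 3 IFT88siRNA libraries below all 3 NT libraries, as did 17.4% of the 15274 genes tested. By both criteria 2 members were lower, beside 1.56% of all genes lower and 2.23% that differed in either direction. The adjusted p alone gave 6 lower members, beside 9.43% of all genes lower and 19.5% in either direction. *Atf3* was at 12.2, 10.9 and 11.97 CPM against 23.5, 23.4 and 24.8 CPM in NT, with no overlap, a log2 fold change of −1.03 ± 0.07 (adjusted p = 9.11e-10), so that the IFT88siRNA mean was 48.9% of the NT mean. *Fosl1* was at 43.2, 42.8 and 40.2 CPM against 70.8, 67.5 and 63.5 CPM, a log2 fold change of −0.68 ± 0.05 (adjusted p = 3.92e-09).

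*Fos* and *Jun*, which form the classical AP-1 dimer, were each lower by 0.50 on the log2 scale at 0 h, short of 1.5-fold. *Fos* was at 12.7, 13.1 and 13.7 CPM against 18.7, 18.02 and 18.9 CPM (log2 fold change −0.50 ± 0.07, adjusted p = 2.01e-05). *Jun* was at 79.7, 84.97 and 84.7 CPM against 120, 117 and 115 CPM (−0.50 ± 0.04, adjusted p = 2.61e-08). *Maff* (−0.39 ± 0.07, adjusted p = 0.0003) and *Junb* (−0.30 ± 0.04, adjusted p = 4.41e-05) were lower by less. *Fosb* (−0.27 ± 0.13), *Fosl2* (−0.09 ± 0.04), *Jund* (0.20 ± 0.07) and *Batf3* (0.16 ± 0.15) did not pass the adjusted threshold.

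At 1 h, when most of the genes were at their highest, 0 of the 10 differed between the siRNA groups by both criteria with edgeR, beside 2.66% of the 14797 genes tested, and DESeq2 also called 0. By adjusted p alone 2 differed, beside 19.0% of all genes, and 2 had an unadjusted p under 0.05, beside 4800 of the 14797 genes. *Fosb* was higher in IFT88siRNA, at 855, 850 and 813 CPM against 798, 757 and 734 CPM, by 0.13 ± 0.04 on the log2 scale (adjusted p = 0.0292). *Fosl1* was lower, at 265, 259 and 269 CPM against 289, 278 and 305 CPM (−0.14 ± 0.04, adjusted p = 0.0235). *Atf3*, which had the largest difference at 0 h, was at 147, 148 and 155 CPM against 134, 138 and 150 CPM, overlapping NT, and the log2 difference was 0.09 with a 95% interval from −0.0016 to 0.18 (adjusted p = 0.195). The intervals for *Fos* (−0.12 to 0.18) and *Jun* (−0.08 to 0.14) also included 0.

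After 1 h, fewer genes of the whole series differed, and the members that did were mostly *Fos*, *Fosl1*, *Atf3* and *Maff*. At 2 h 0 of the 10 differed by both criteria, beside 0.496% of 14728 genes, and 0 by DESeq2. An unadjusted p under 0.05 was found for 3, beside 2540 of the 14728 genes. The adjusted p alone was passed by 1, beside 2.76%, namely *Fos*, at 34.6, 35.7 and 43.8 CPM against 49.2, 53.3 and 53.6 CPM (log2 fold change −0.46 ± 0.09, adjusted p = 0.0187). At 4 h *Fos* passed both criteria, the 1 member beside 0.432% of 14801 genes, at 24.9, 32.7 and 30.2 CPM against 45.4, 37.9 and 49.4 CPM (−0.60 ± 0.10, adjusted p = 0.0018). That call was lost without NT replicate 1 (−0.58), NT replicate 3 (−0.51) or IFT88siRNA replicate 1 (−0.50), and in TPM (−0.50, adjusted p = 0.174 with limma). By adjusted p alone 3 members differed at 4 h, all lower, beside 3.85% of all genes in either direction: *Fos*, *Atf3* (−0.39 ± 0.08) and *Fosl1* (−0.21 ± 0.05).

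At 8 h 0 members differed by both criteria, beside 0.692% of 15165 genes, and 0 by DESeq2. An unadjusted p under 0.05 was found for 7, beside 3195 of the 15165 genes. By adjusted p alone 4 differed, all lower, beside 4.25%: *Fosl1* (−0.50 ± 0.08), *Fos* (−0.40 ± 0.09), *Maff* (−0.37 ± 0.09) and *Fosl2* (−0.29 ± 0.05). *Atf3* was at 29.3, 17.8 and 27.9 CPM against 39.1, 32.5 and 40.3 CPM, so that IFT88siRNA replicate 2 stood well below the others, and its log2 fold change of −0.60 ± 0.15 missed the adjusted threshold narrowly. It passed both criteria without IFT88siRNA replicate 1 (−0.71, adjusted p = 0.0472) or replicate 3 (−0.71, adjusted p = 0.00654) and in a model of all 36 libraries (−0.59, adjusted p = 0.000213). All of these fits kept the low replicate 2, and *Atf3* was not called without it.

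At 24 h *Fosl1* was the member that differed by both criteria, beside 1.15% of 15223 genes, at 61.1, 60.3 and 62.0 CPM against 94.9, 92.8 and 88.0 CPM (−0.59 ± 0.05, adjusted p = 1.49e-06). The fold was at the criterion, and it fell short of it without NT replicate 1 (−0.57) or IFT88siRNA replicate 2 (−0.58), with upper-quartile scaling (−0.58) and without the filter on low counts (−0.58). By adjusted p alone 5 members differed, beside 8.66%, with *Fos* (−0.37 ± 0.07), *Atf3* (−0.31 ± 0.07) and *Maff* (−0.24 ± 0.05) lower and *Jund* (0.24 ± 0.07, adjusted p = 0.0383) higher. When the 6 times were tested together over all 36 libraries, *Atf3*, *Fos* and *Fosl1* differed by both criteria (3 of 10, beside 5.19% of 16710 genes), and 8 did so by adjusted p alone, beside 31.8%. *Fos* rested on its difference at 4 h there: without replicate 1 of every condition its largest difference was −0.47 and without replicate 3 −0.55, both short of the fold criterion, as it was without the filter on low counts (−0.58), with log2(TPM + 1) (−0.53) and with log2(TPM + 0.1) (−0.56).

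**Figure D3:**
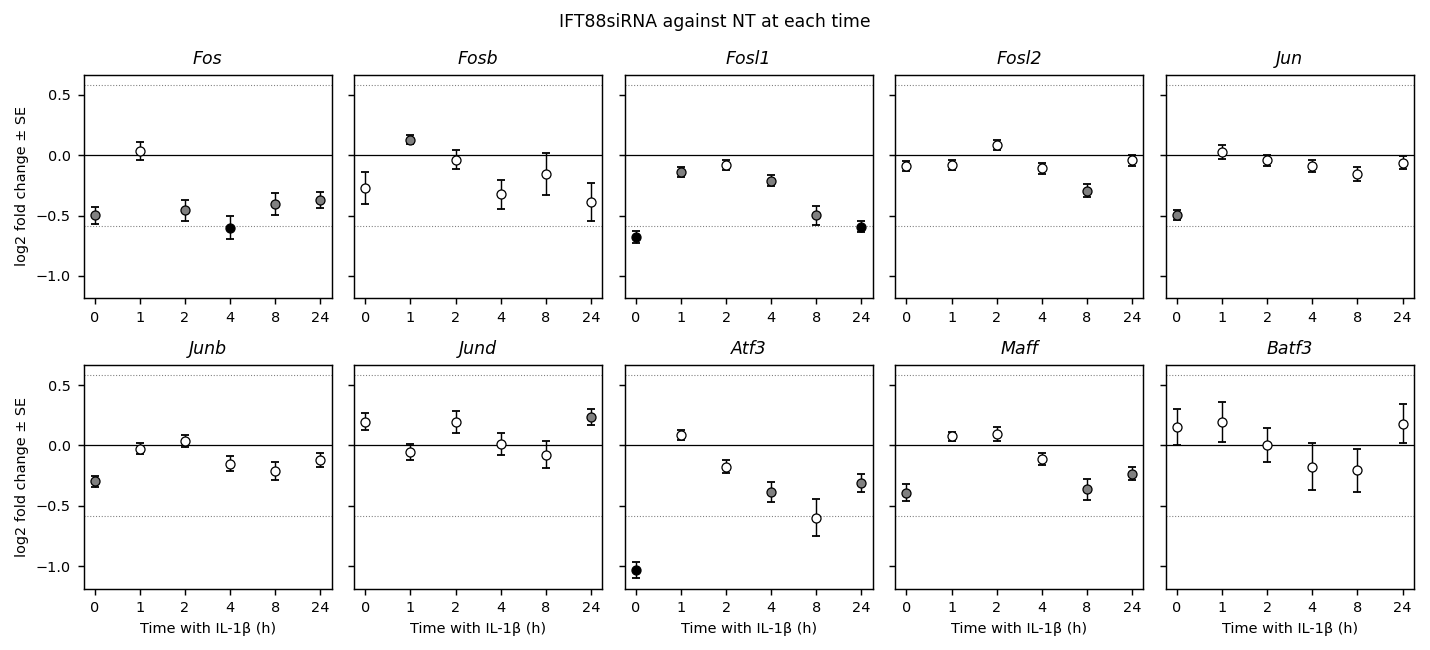
Difference between IFT88siRNA and NT (log2 fold change ± SE, 3 libraries against 3) for each of the 10 genes at each time with IL-1β (h). Black points passed both criteria, grey points the adjusted p alone and white points neither, and dotted lines mark a fold of 1.5; *Atf3* moves from −1.03 at 0 h to 0.09 at 1 h and to −0.60 at 8 h.

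Since several members differed at 0 h and by less at 1 h, the change from 0 h was compared between the siRNA groups directly, as the difference of the 2 log2 changes in a model of all 36 libraries. The differences at the 5 times share the 0 h libraries of both groups, so a high or low 0 h level enters each of them. *Atf3* had a larger change in IFT88siRNA at 1 h, by 1.13 ± 0.15 on the log2 scale (adjusted p = 1.45e-05), 12.8-fold against 5.88-fold. It was the 1 member past both criteria at 1 h, beside 0.598% of the 16710 genes tested. The differences for *Atf3* were 0.86 ± 0.15 at 2 h, 0.65 ± 0.16 at 4 h and 0.73 ± 0.17 at 24 h, all past both criteria, and 0.45 ± 0.16 at 8 h, which was not.

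At 2 h *Fosl1* was called as well, with 0.60 ± 0.08 (adjusted p = 2.08e-05), 8.16-fold in IFT88siRNA against 5.37-fold in NT. That made 2 members at 2 h beside 0.245% of all genes, 1 at 4 h (*Atf3*) beside 0.311% and 0 at 8 h beside 0.275%. DESeq2 also called 0 at 8 h, where 4 had an unadjusted p under 0.05, beside 1632 of 16710 genes. There was 1 at 24 h (*Atf3*) beside 0.132%. Tested over the 5 times together, *Atf3* and *Fosl1* passed both criteria, beside 1.20% of all genes. By adjusted p alone there were 6 members, *Fos*, *Fosl2*, *Jun* and *Maff* in addition, beside 5.53%.

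*Jun* had a difference of the same sign at every time, 0.53 ± 0.09 at 1 h, 0.46 ± 0.09, 0.42 ± 0.09 and 0.36 ± 0.09 at 2, 4 and 8 h and 0.44 ± 0.09 at 24 h, each with an adjusted p under the threshold (0.000234 to 0.0323) and a fold under 1.5 with counts. In log2(TPM + 1) *Jun* (0.61) and *Fosl1* (0.61, against 0.54 ± 0.08 with counts) passed both criteria at 1 h, and *Maff* did so with log2(TPM + 0.1) (0.59). *Maff* had 0.47 ± 0.10 at 1 h and 0.49 ± 0.10 at 2 h. *Fos* had 0.54 ± 0.14 at 1 h (adjusted p = 0.0338). *Fosb*, *Fosl2*, *Junb*, *Jund* and *Batf3* had no time at which the difference passed the adjusted threshold, and for *Fosl2* the 95% interval at 1 h was −0.10 to 0.13.

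The call for *Atf3* at 1 h was kept when any replicate number was left out of every condition, whereas later calls were lost, mostly at a difference of much the same size with fewer libraries. At 2 h it was 0.88 (adjusted p = 0.115) without replicate 1 and 0.85 (adjusted p = 0.0543) without replicate 3. At 4 h it was 0.81 (adjusted p = 0.146) without replicate 1, 0.48 (adjusted p = 0.0377, short of 1.5-fold) without replicate 2 and 0.65 (adjusted p = 0.214) without replicate 3. At 24 h it was 0.81 (adjusted p = 0.426) without replicate 1 and 0.65 (adjusted p = 0.329) without replicate 3. *Fosl1* at 2 h was at 0.57, short of the fold criterion, without replicate 2. In TPM the difference of *Atf3* was 0.47 at 4 h and 0.54 at 24 h, with adjusted p-values of 0.21 and 0.289 from limma.

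**Figure D4:**
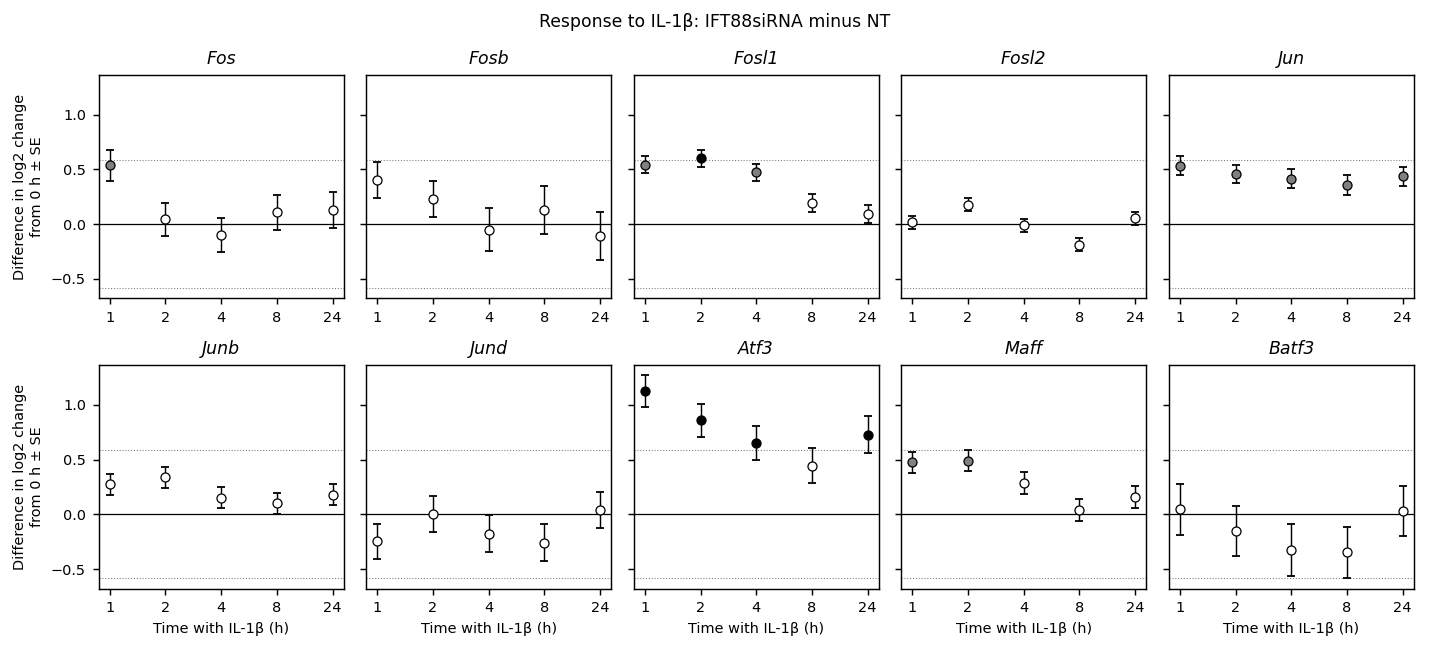
Difference in the response to IL-1β, as the log2 change from 0 h in IFT88siRNA minus that in NT (± SE, all 36 libraries), for each gene at 1 to 24 h. Black points passed both criteria, grey points the adjusted p alone and white points neither, and dotted lines mark a fold of 1.5; *Atf3* is highest at 1.13, and *Jun* is positive at all 5 times.

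Genes that act with the AP-1 subunits were described as lists, without a test of the list. Of 24 other genes of AP-1-related zipper families, 22 were tested in NT. At 1 h 5 were higher and 0 lower, beside 9.22% and 9.45% of all genes. At 4 h 10 were higher and 0 lower, beside 16.3% and 12.4% of all genes. The median log2 change was 0.52 at 4 h, beside −0.02 over all genes. *Cebpb* (1.94 ± 0.14), *Cebpd* (1.74 ± 0.08) and *Maf* (1.42 ± 0.05) led at 1 h. *Batf2* (4.59 ± 0.12) and *Batf* (4.14 ± 0.48), relatives of *Batf3* that can take the place of a Fos protein, were among the largest at 4 h, beside *Cebpd* (4.20 ± 0.08).

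Of 20 MAP kinase genes tested, through whose products cytokines activate AP-1, 2 were higher and 3 lower at 1 h, near the 9.22% higher and 9.45% lower of all genes, with a median of 0.02 beside −0.01. *Map3k8*, which encodes the kinase TPL2, rose by 4.35 ± 0.10 on the log2 scale, and *Mapk12* and *Mapk13*, encoding p38 isoforms, were lower by −1.02 ± 0.26 and −0.89 ± 0.19. Of 6 genes of SRF and its partners, 1 was higher at 1 h and 2 at 2 h, when 9.22% and 13.0% of all genes were. *Srf* was at 1.79 ± 0.04 and 2.08 ± 0.04, and *Elk4* at 0.66 ± 0.06 at 2 h. Of 8 genes for turnover and co-factors of AP-1, 0 were called at 1 h with edgeR or DESeq2. An unadjusted p under 0.05 was found for 3, beside 9103 of 16048 genes. At 2 h 2 were higher and 1 lower, beside 13.0% and 14.3% of all genes. They were *Nfatc2* (5.13 ± 0.30), *Nfatc1* (2.72 ± 0.06) and *Fbxw7* (−0.99 ± 0.05), whose product marks JUN for degradation.

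Of 13 genes often given as AP-1 targets, 6 were higher and 3 lower in NT at 1 h, beside 9.22% and 9.45% of all genes. At 4 h 11 were higher and 1 lower, beside 16.3% and 12.4% of all genes. The median log2 change was then 2.04 beside −0.02 over all genes. *Il6* rose by 8.46 ± 0.20, *Mmp13* by 4.88 ± 0.18 and *Mmp3* by 4.11 ± 0.29 at 4 h. Against NT, 0 of the 10, 10 and 11 tested at 0, 1 and 2 h differed with edgeR or DESeq2. Of all genes, 2.23%, 2.66% and 0.496% did with edgeR. An unadjusted p under 0.05 was found for 7, 5 and 7, beside 4907 of 15274, 4800 of 14797 and 2540 of 14728 genes. With edgeR 3, 3 and 4 of the 13 were lower in IFT88siRNA at 4, 8 and 24 h. Of all genes, 59 of 14801, 93 of 15165 and 91 of 15223 were lower. DESeq2 called 2, 4 and 3 of the list at these times. *Mmp3* was lower by −0.95 ± 0.19, −1.73 ± 0.16 and −1.57 ± 0.16 and *Mmp13* by −0.85 ± 0.10, −1.68 ± 0.13 and −1.75 ± 0.15 at these times. Among the other 4 lists, 0 genes differed between the siRNA groups by both criteria at any time with edgeR. Of all genes, 2.23%, 2.66%, 0.496%, 0.432%, 0.692% and 1.15% did at 0, 1, 2, 4, 8 and 24 h. At such shares a 0 in lists this short says little. DESeq2 called 1, of the turnover and co-factor list at 2 h. Between 0 and 9 genes of a list had an unadjusted p under 0.05. Over all genes this was 4800 of 14797 at 1 h and 2540 of 14728 at 2 h.

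The genes whose pattern was most like that of each member were taken by Pearson's r over the 12 condition means of log2 CPM. They were sought among the 16710 genes with the members themselves left out, so likeness between members was not ranked. The means share libraries and a common response to IL-1β, so r is a description only. With log2(TPM + 1) in place of CPM, all 3 genes were kept for *Fosb* alone, and none for *Jund* and *Batf3*. *Ccnl1*, *Ier2* and *Egr1* came first for *Fos* (r of 0.987 for *Ccnl1*), and *Mcl1*, *Zbtb10* and *Dnajb1* for *Fosb* (0.994 for *Mcl1*). *Mafg*, which encodes a small Maf protein, came first for *Fosl1* (0.983), before *Coq10b* and *Rbm18*. *Arid5b* led for *Fosl2* (0.988), before *Gadd45b* and *Pim1*, and *Gadd45b* led for *Maff* (0.987), before *Ankrd1* and *Rel*. *Ppp1r15a*, *Per1* and *Ccnl1* were nearest to *Jun* (0.981 for *Ppp1r15a*). *Nfkbia*, which encodes the inhibitor IκBα, was nearest to *Junb* (0.986), before *Ankrd1* and *Gadd45b*, and *Txndc16* to *Jund* (0.990), before *Bap1* and *Napa*. For *Atf3* the nearest were *Ifnb1*, which encodes interferon β, *Ptger4* and *Egr4* (0.984 for *Ifnb1*). *Batf3*, which hardly moved, had no close match, with 0.894 for *Fkbp1b* ahead of *Mrpl48* and *Gm20712*.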

How the data were processed

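RNA sequencing gave 36 libraries from mouse chondrocyte-like cells, 3 for each of 2 siRNA pools at 6 times. The sample labels give the siRNA at 50 nM and the methods text gives 10 nM. The authors deposited raw counts per gene, for which HISAT2 2.1.0 alignment to GRCm38 and counting with featureCounts of Subread 1.6.3 at default settings are named, and TPM values estimated with Salmon 0.9.1. Totals were between 19337022 and 38304127 counts per library, and without UMIs any precision they give covers counting error only.

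Coordinates are those of the GENCODE annotation of GRCm38, whose gene models may differ from the Ensembl release used for counting. The 10 genes and all gene lists were chosen with earlier results of these data known. Counts were filtered with filterByExpr, scaled by TMM and tested by quasi-likelihood in edgeR 4.0.16 (R 4.3.3), on 2 sides, adjusting p-values over all genes tested by Benjamini-Hochberg. The time courses used the 18 libraries of an siRNA group, each siRNA comparison the 6 libraries of that time, and the differences in response all 36. A call needed an adjusted p under 0.05 and a fold change over 1.5. Standard errors were taken from the fold change and its F-statistic, and CPM values use TMM scaling over the 36 libraries. ImpulseDE2, which the methods of the study name, was not used here. Scripts were tested on simulated data. Alternatives were DESeq2 1.42.0, DESeq2 size factors, upper-quartile scaling, no filter on low counts, no fold threshold, a replicate block, all 36 libraries in 1 model, limma 3.58.1 on log2(TPM + 1) or log2(TPM + 0.1), and leaving out each library. In the tests on all 36 libraries, each replicate number was instead left out of every condition. Named were the 10 genes, *Ift88*, up to 3 called genes per list with the largest change, and the 3 genes most like each member.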

Additional observations from a re-analysis of the deposited data

Results flagged for a closer look

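There were 5 differences between the siRNA groups in the change from 0 h that passed both criteria, each as IFT88siRNA minus NT on the log2 scale. Others passed the adjusted p alone. For *Atf3* they were 1.13 at 1 h, 0.86 at 2 h, 0.65 at 4 h and 0.73 at 24 h, and for *Fosl1* 0.60 at 2 h. The 4 values of *Atf3* share the same 0 h libraries, where the gene was at 11.7 ± 0.723 CPM in IFT88siRNA and 23.9 ± 0.797 CPM in NT, whereas at 1 h it was at 150 ± 4.58 and 141 ± 8.35 CPM. *Fosl1* was at 42.1 ± 1.66 and 67.3 ± 3.66 CPM at 0 h and at 344 ± 7.62 and 363 ± 5.46 CPM at 2 h.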

How the results depend on the processing

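The setting without the fold threshold was left out of the totals for single fold changes of the members. Under the other alternatives 4810 stayed called or not called as before, 47 lost and 33 gained a call, and no called direction reversed. Without the fold threshold the members called rose from 3 to 7 in NT at 24 h, beside 7206 of 16048 genes. In IFT88siRNA at 24 h they rose from 3 to 6, beside 6419 of 16129 genes. Between the siRNA groups they rose to 6, 2, 1, 3, 4 and 5 at 0, 1, 2, 4, 8 and 24 h and 8 over time. Of all genes, 19.5%, 19.0%, 2.76%, 3.85%, 4.25% and 8.66% passed at these times and 31.8% over time. For the difference in response the members rose to 5, 4, 3, 1 and 2 at the times from 1 to 24 h and 6 over time. Of 16710 genes, 396, 208, 198, 166 and 57 passed at these times and 924 over time. With log2(TPM + 1), log2(TPM + 0.1) and unfiltered TPM in limma, 0 members differed between siRNA groups at 4 h, and in response 3, 4 and 3 at 1 h and 0 at 4 and 24 h; unfiltered TPM gave 1 at 2 h and log2(TPM + 0.1) gave 4 over time. Upper-quartile scaling and no filter on low counts each left 0 between siRNA groups at 24 h, and all 36 libraries in 1 model gave 1 at 8 h. The causes were not tested. Leaving out 1 library gave 4 to 6 members in IFT88siRNA at 8 h and 3 to 4 at 24 h, and 0 to 1 between siRNA groups at 4, 8 and 24 h. Leaving a replicate number out of every condition gave 2 to 3 between siRNA groups over time. In response it gave 1 at 2 h, 0 at 4 h, 0 to 1 at 24 h and 1 to 2 over time. Replicate numbers did not pair the samples (correlations of deviations from −0.133 to 0.223, with 0 of 16 comparisons over 0.1 throughout), and a replicate block changed 1 count of members, from 0 to 1 (*Atf3*) between siRNA groups at 8 h. Upper-quartile scaling moved the median log2 change of all genes in NT to −0.12 at 2 h and −0.14 at 4 h (from −0.01 and −0.02), and the calls at 4 h from 2608 higher and 1994 lower to 2263 and 2687. In log2(TPM + 1) the medians were −0.14, −0.22 and −0.22 at 1, 2 and 4 h. Counts near 3 CPM limit *Batf3*, and at 0 h *Fosb*.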
